A study of Mus musculus with 18 samples.

Results

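Rbpj was deleted in the skin of mice with either of 2 inducible Cre drivers, and the change in each gene's RNA, averaged over both drivers, is described here. The comparison rests on 12 of the 18 mice of the series, 7 mutants and 5 controls, chosen by their labels and by no measured value. KR mice (4 mice: KR 1, 3, 4 and 5) carried K14-CreERT and the Rbpj deletion, and were set against KR controls 4 and 6. LR mice (3 mice: LR 1, 2 and 3) carried Lrig1-CreERT2 and the Rbpj deletion, and were set against LR controls 2, 3 and 5. Each control came from the batch or litter of its mutants, and the alleles that controls carried are not given in the sources used here. Tamoxifen, which switches on these Cre enzymes, was given at 8 weeks of age. Back skin, stated to be in telogen, when follicles rest, was taken 10 weeks later. The epidermal side was freed with trypsin and its RNA sequenced, 1 library per mouse. The other 6 mice, 4 with Notch1 deleted under K14-CreERT (KN1) and 2 controls of their batch, were used only where the effects of both deletions are set against each other.

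Rbpj is the DNA-binding protein of the Notch pathway. A ligand of the Jagged or Delta-like families on one cell makes the Notch receptor of its neighbour open to cleavage by Adam proteases and then by gamma-secretase. The freed intracellular part joins Rbpj in the nucleus and turns on genes such as those of the Hes and Hey families, whereas Rbpj without it can hold genes off together with corepressors. In the epidermis Notch signalling is known for moving keratinocytes out of the basal layer into differentiation, and its loss is known for inflammation and for changes in hair follicles and sebaceous glands. K14 drivers act in basal keratinocytes of epidermis and follicle, and Lrig1 marks stem cells of the upper follicle, so each driver spares some of the cells sampled.

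Libraries held between 8076316 and 20260259 counted reads, and the deepest, KR control 4, joins reads of 1 mouse from 2 sequencing occasions. The labels give KR control 6 and LR control 5 a second name ending in 2, like that of the repeat run. What it marks is not said, and both are referred to below as second-named. KN1 control 7, outside the Rbpj comparison, has such a name too. It was left out with them where the Notch1 comparison was run without the second-named controls. The keratinocyte markers Krt14 (4850 to 11900 CPM, counts scaled to library size) and Krt5 (11700 to 18800 CPM) were high in every mouse, whereas the summed levels of the muscle markers (5.31 to 16.5 CPM over 6 genes) and endothelial markers (11.5 to 35.4 CPM over 9 genes) were low. The RNA of the mitochondrial genome stood apart by library: its 15 genes had a mean log2 CPM of 7.87 and 8.79 in the KR controls and 8.16 in LR control 5, against 5.87 to 6.77 in the 7 mutants and 5.96 in the other 2 LR controls. Genes of the growing hair matrix and shaft were at a mean log2 CPM of 2.17 to 4.52 in LR control 2, KR control 6, KR 3, KR 4, KR 5 and LR 2, and at -0.79 to -0.08 in the other 6 mice. In the mice with high levels, these markers of growing hair go against the stated telogen. The hair stage of each mouse was not tested otherwise. Every library came from its own mouse, so the p-values rest on variation among these libraries, in which differences between animals and between library preparations or runs cannot be told apart.

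The targeted gene came first. Rbpj (chr5:53466152-53657362, plus strand, GRCm38) was measured at 42.9, 47.8, 45.8 and 43.0 CPM in KR 1, 3, 4 and 5, against 60.7 and 62.7 CPM in KR controls 4 and 6. It was measured at 31.1, 39.2 and 33.9 CPM in LR 1, 2 and 3, against 44.4, 45.2 and 75.3 CPM in LR controls 2, 3 and 5. Every mutant lay below every control of its batch, with LR control 5 far above the other LR controls. The average log2 fold change was -0.57 ± 0.13 (SE; 7 mutants, 5 controls; edgeR adjusted p = 0.0171), with -0.46 in KR and -0.66 in LR. The mean level still counted in the mutants was 44.9 CPM in KR and 34.8 CPM in LR, against 61.7 and 55.0 CPM in the controls, and these counts cannot tell undeleted cells from RNA of the deleted allele. The fall in Rbpj did not pass the test without the second-named controls (-0.39, edgeR adjusted p = 0.0502), with no batch term (-0.51, 0.0544) or with a covariate for the mitochondrial list (-0.31, 0.26). Krt14, whose promoter drives one of the Cre enzymes, rose by 0.64 ± 0.12 on the log2 scale (SE, edgeR adjusted p = 0.0074), from 4850 to 6260 CPM in the controls to 6840 to 11900 CPM in the mutants. Lrig1 had 0.29 ± 0.15 (SE, edgeR adjusted p = 0.209). Notch1 was at 334 to 412 CPM in the mutants and 336 to 425 CPM in the controls, with an average change of 0.01 ± 0.09 (SE, edgeR adjusted p = 0.958) that turned slightly negative under 7 of 24 alternative settings.

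**Figure D1:**
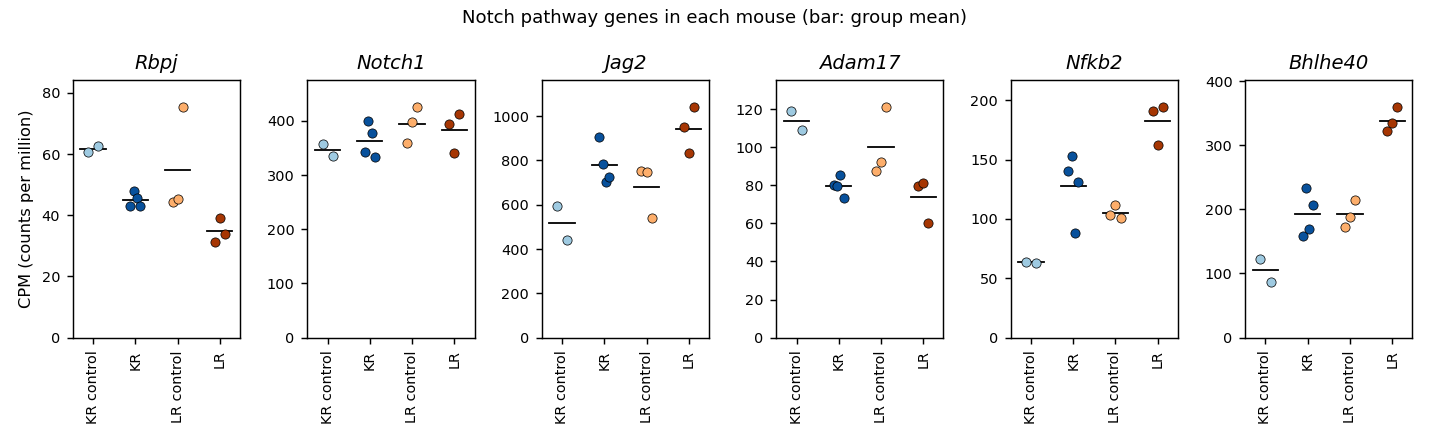
CPM of 6 Notch pathway genes (vertical axes, each from 0) in each of the 12 mice, as points by group, with a bar at the group mean. Rbpj lies between 31.1 and 47.8 CPM in the 7 mutants and between 44.4 and 75.3 CPM in the 5 controls, and Nfkb2 and Bhlhe40 lie above the controls of the same batch in every mutant.

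Across all genes, the average effect was fitted to 16241 genes, with batch and deletion as terms. A gene is called where its adjusted p was under 0.05. In all, 943 genes rose (5.81% of those tested) and 1024 fell (6.31%), so 12.1% were called. Changes of at least 2-fold were more often increases, 297 against 139. Of the called genes, 942 of the 943 that rose and all 1024 that fell had the same sign in KR and LR. Since genes were called on the mean of both effects, equal signs and separate groups are largely set by that choice and are given as a description. Mutants and controls did not overlap in both batches for 577 of the genes that rose (61.2%) and 592 of those that fell (57.8%), against 4.48% and 4.82% of all genes tested (9.3% in all). Within a single batch such separation was common, at 38.6% of all genes in KR and 19.8% in LR. The median log2 fold change of the genes that rose was 0.75 in KR and 0.73 in LR, and that of the genes that fell was -0.62 and -0.51. The single gene with opposite signs, RP23-408A1.5, is a clone-named gene with at most 1.07 mean CPM in any group.

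Fewer genes were called for each driver by itself. With 4 group means, KR alone called 66 genes (0.406% of those tested), 53 higher (0.326%) and 13 lower (0.08%), and LR alone 149 (0.917%), 130 higher (0.8%) and 19 lower (0.117%). In all, 796 of the 943 genes that rose and 996 of the 1024 that fell were called in neither. The KR count rests on single mice, since it was 1624 without LR control 5, 203 without KR 4 and 190 without LR 3, between 10 and 35 without any other mouse, and 997 in DESeq2. Over all 16241 genes, 71.7% had the same sign in KR and LR, and their log2 fold changes had a Pearson r of 0.48 and a Spearman rho of 0.53, given as a description across genes that share libraries. When each batch was fitted alone, 672 genes were called in KR (4.36% of 15423; 1.95% higher and 2.41% lower), and 643 of the 654 also tested in LR had the same sign there. The LR batch alone called 66 genes (0.437% of 15115; 0.41% higher and 0.0265% lower), and 58 of the 61 also tested in KR had the same sign there. Called with the same sign in both batches were 22 genes. KR and LR controls are different mice, so these counts share no library. However, the mitochondrial list was high in both KR controls and in LR control 5. How far this bears on the shared signs was not tested.

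The number of calls depended on the controls. Without the second-named controls 359 genes rose and 142 fell, 438 of them among the original calls, and all 1967 original calls kept their sign. With a covariate for the mitochondrial list, added after seeing the data, 297 rose and 140 fell. Leaving out 1 mouse lowered a count by over 1.5 times for KR control 4 (308 rose, 354 fell), KR control 6 (468 and 478), LR 3 (473 and 424), KR 3 (509 and 707), KR 5 (621 and 612) and LR control 5 (584 and 750). Across 23 alternatives, all those tried but the replicate block, 157 genes were called every time, 110 higher and 47 lower. With that block, which pairs mice by number, included, 26 were, 25 higher and 1 lower.

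**Figure D2:**
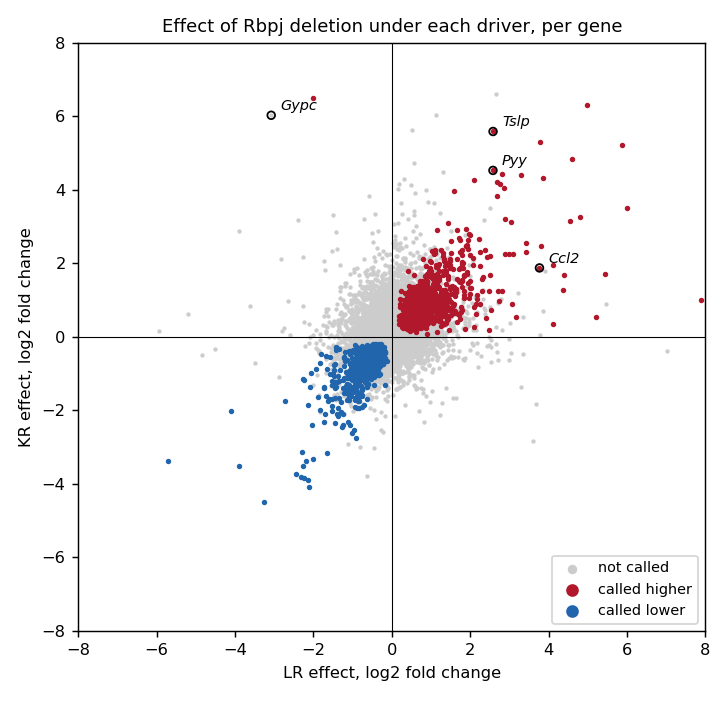
Log2 fold change of each of 16241 genes in KR (vertical axis) against that in LR (horizontal axis), red for the 943 genes called higher on average, blue for the 1024 called lower and grey for the rest. The called genes lie in the quadrants of equal sign except for 1 point, and the gene Gypc, circled at upper left, lies in opposite directions under the 2 drivers.

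The 12 genes with the largest increases, among 413 genes at 5 CPM or more that rose with no overlap in both batches, code for receptors, secreted signals and proteins of stressed epidermis. Of these, 11 are described. S1pr3, a receptor for the lipid signal sphingosine 1-phosphate, was at 21.8, 63.5, 28.5 and 68.3 CPM in the KR mice and 8.02 and 11.3 CPM in their controls. In LR it was at 76.0, 58.2 and 71.1 CPM, against 8.98, 6.49 and 12 CPM in the controls. Of the mutants KR 1 and KR 4 lay nearest to the controls, and the average change was 2.58 ± 0.31 (SE, edgeR adjusted p = 0.00115). Rgs4, which switches off signalling by G proteins below such receptors, changed by 2.02 ± 0.28 (SE, edgeR adjusted p = 0.00161).

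Secreted signals made up another 3 of the 12. Tslp, the keratinocyte cytokine that acts on dendritic cells and drives allergic inflammation, was at 10.2, 11.1, 10.4 and 14.8 CPM in the KR mice, against 0.202 and 0.279 CPM in the KR controls. In the LR mice it was at 11.9, 3.75 and 4.58 CPM, against 1.72, 0.944 and 0.737 CPM in the LR controls. All KR mice were at a like level, whereas LR 1 was well above LR 2 and LR 3. The average change was 3.70 ± 0.54 (SE, edgeR adjusted p = 0.00262), with 5.58 in KR and 2.58 in LR. Pyy, a peptide hormone best known from the gut, reached 650, 1280, 616 and 1180 CPM in KR against 44.0 and 36.8 CPM, and 254, 334 and 562 CPM in LR against 47.6, 53.6 and 90.4 CPM. It was the most abundant of the 12 genes in the KR mice, and changed by 3.43 ± 0.46 (SE, edgeR adjusted p = 0.00256). Ccl2, the chemokine that draws monocytes, was at 8.24, 18, 12.3 and 22.7 CPM in KR against 5.35 and 2.79 CPM, and at 118, 54.8 and 85.2 CPM in LR against 7.88, 6.96 and 4.24 CPM. The KR mice lay nearer to their controls than the LR mice did to theirs. The average change was 2.88 ± 0.43 (SE, edgeR adjusted p = 0.00421).

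The remaining 6 higher genes act inside keratinocytes or at their surface. Stfa3, a stefin that inhibits cysteine proteases, rose by 3.96 ± 0.54 (SE, edgeR adjusted p = 0.00262), from 1.11 to 5.11 CPM in the controls to 12.8 to 53.7 CPM in the mutants. Sprr2a3, a small proline-rich protein of the cornified envelope, rose by 3.43 ± 0.55 (SE, edgeR adjusted p = 0.00616). Gsdmc, a pore-forming gasdermin, rose by 2.40 ± 0.34 (SE, edgeR adjusted p = 0.00231). Ceacam12, a member of the carcinoembryonic antigen family of adhesion proteins, had the smallest adjusted p of these 12: it was at 10.6 to 13.6 CPM in KR against 1.97 and 3.25 CPM, and at 14.4 to 23.4 CPM in LR against 2.46 to 4.60 CPM. Its change of 2.37 ± 0.20 (SE, edgeR adjusted p = 6.88e-05) was close to equal in KR (2.21) and LR (2.52). Csrp2, a LIM domain protein of the cytoskeleton, rose by 1.94 ± 0.31 (SE, edgeR adjusted p = 0.00445). Krt16, a keratin of wounded epidermis, had the least certain increase, 1.92 ± 0.54 (SE, edgeR adjusted p = 0.0443), with KR 3 at 210 CPM and the other 6 mutants at 39.9 to 81.4 CPM, against 11.4 to 36.9 CPM in the controls. It missed the threshold under 14 of 24 alternative settings, whereas 10 of the 12 were called under every setting but the replicate block. Reads of the near-identical Sprr2a, Gsdmc and Stfa copies may have been split or lost in counting.

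The 12 genes with the largest decreases were chosen from 516 by the same rule, and none of these 12 was as large as the smallest of the 12 increases. Prkcq, protein kinase C theta, best known from T cells, was at 4.06, 3.72, 4.26 and 3.00 CPM in the KR mice against 6.96 and 10.1 CPM, and at 1.3, 1.34 and 1.67 CPM in the LR mice against 6.40, 6.37 and 7.46 CPM. The average change was -1.69 ± 0.22 (SE, edgeR adjusted p = 0.00115), and the LR mice were far more alike than in the genes that follow. Gldc, of the mitochondrial glycine cleavage system, was at 12.9, 7.33, 15.7 and 4.24 CPM in KR against 32.6 and 34.3 CPM, and at 15, 16.3 and 4.02 CPM in LR against 36.3, 38.0 and 36.3 CPM. The 5 controls lay close together and KR 5 and LR 3 lay lowest, for an average change of -1.69 ± 0.32 (SE, edgeR adjusted p = 0.0111). The same order of mice returned in most of these genes: KR 5 was the lowest KR mouse in 10 of the 12, and LR 3 the lowest LR mouse in 11. Among the 12 higher genes, LR 3 was the highest LR mouse in 9, and KR 3 (7 genes) or KR 5 (5 genes) the highest KR mouse.

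Both Rspo3, a secreted booster of Wnt signalling, and Nkd2, an inhibitor inside the cell that binds Dishevelled, fell. Rspo3 was at 4.55, 3.41, 5.44 and 2.59 CPM in KR against 15.8 and 8.27 CPM, and at 6.68, 5.98 and 0.782 CPM in LR against 9.23, 16.3 and 18 CPM, a change of -1.64 ± 0.37 (SE, edgeR adjusted p = 0.0171). The controls ranged widely, and separate groups in both batches were a condition of the choice here as for all 24 genes. Nkd2 was at 7.23 to 14.9 CPM in KR and 4.35 to 17.8 CPM in LR, against 23.1 to 41.3 CPM in the controls, a change of -1.43 ± 0.27 (SE, edgeR adjusted p = 0.0101). Fmo2, a flavin monooxygenase that oxidises foreign compounds, fell by 1.64 ± 0.36 on the log2 scale (SE, edgeR adjusted p = 0.0151), from 5.19 to 8.62 CPM to 0.311 to 3.21 CPM. Kcng4, a potassium channel subunit, fell by 1.55 ± 0.29 (SE, edgeR adjusted p = 0.0074). Mboat2, an acyltransferase of phospholipids, went from 131 to 155 CPM in the controls to 21.2 to 89.0 CPM in the mutants, a change of -1.41 ± 0.29 (SE, edgeR adjusted p = 0.0136). Plcxd2, of the phospholipase C domain family, had -1.39 ± 0.29 (SE, edgeR adjusted p = 0.013).

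The last 4 belong to 2 families of surface proteins. Skint5 and Skint6 code for membrane proteins of keratinocytes related to Skint1, which shapes the T cells of mouse epidermis. Skint5 was at 43.0, 23.4, 53.7 and 14.1 CPM in KR against 102 and 92.4 CPM, and at 52.9, 66.5 and 24.9 CPM in LR against 98.5, 122 and 114 CPM, a change of -1.36 ± 0.30 (SE, edgeR adjusted p = 0.0181). Skint6 changed by -1.34 ± 0.28 (SE, edgeR adjusted p = 0.0158), with mutants at 15.4 to 68.4 CPM and controls at 86.8 to 116 CPM. Mrgprb9-ps and Mrgprb11-ps, pseudogenes of Mas-related receptors on chromosome 7, had -1.64 ± 0.27 (SE, edgeR adjusted p = 0.00473) and -1.39 ± 0.37 (SE, edgeR adjusted p = 0.0359). Near-identical family members again make these values uncertain. Only 3 of the 12 lower genes (Prkcq, Kcng4 and Mrgprb9-ps) were called under every setting but the replicate block.

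**Figure D3:**
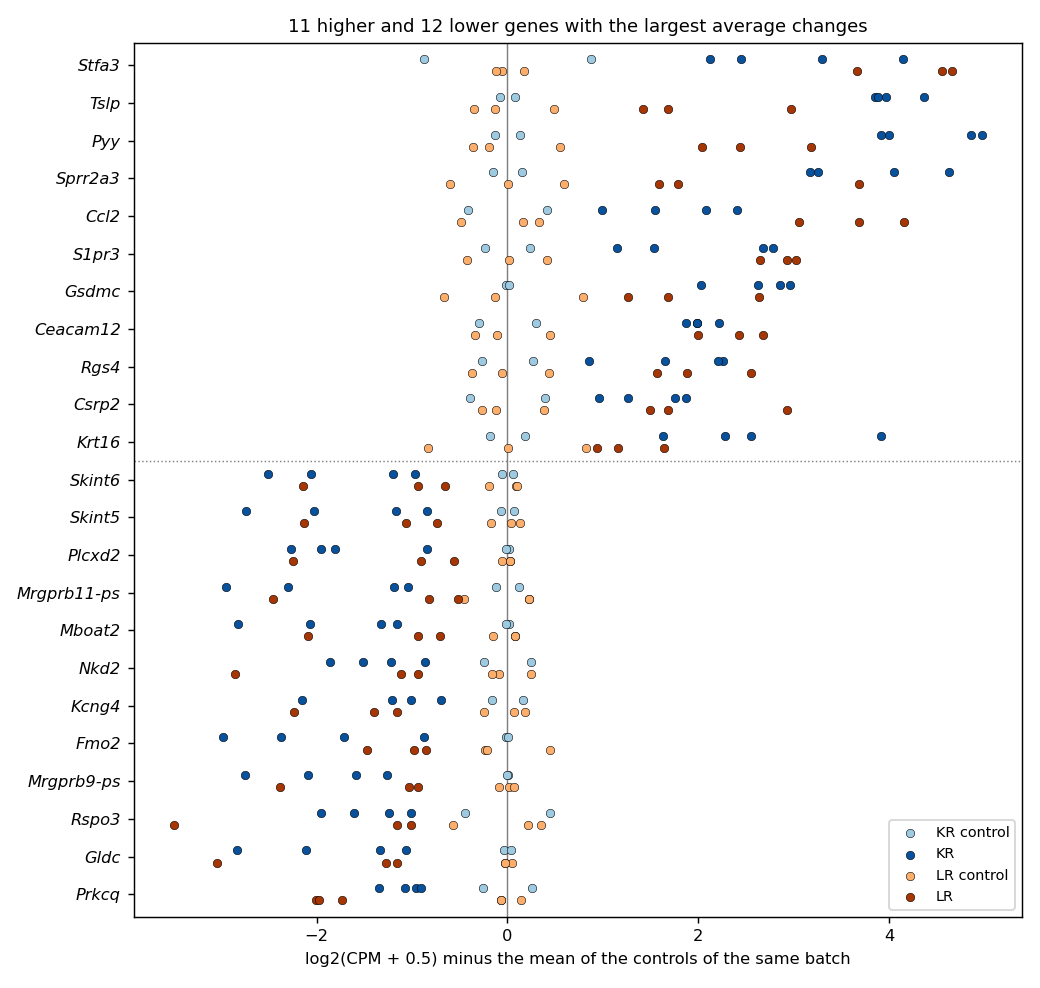
For 11 of the 12 higher (top) and the 12 lower genes, each mouse's log2(CPM + 0.5) minus the mean of the controls of its batch (horizontal axis), with 1 row per gene and KR drawn above LR. Genes were chosen to have every mutant beyond the controls of its own batch, and KR 5 and LR 3 lie farthest from the controls in 10 and 11 of the 12 lower genes.

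Rbpj recognises the letters TGGGAA, or GTGGGAA in its longer form, on either strand. In RefSeq promoters (GRCm38.p6, 250 bases before to 50 after the start, available for 10141 of the genes tested), TGGGAA occurred in 25.7% of the genes that rose, 21.3% of those that fell and 23.1% of all tested. The longer form, which contains the shorter, occurred in 8.01%, 7.02% and 6.34%. Of the 24 genes with the largest changes, 15 had a promoter in this table, and 3 of these held TGGGAA within the 250 bases before the start, a window in which 20.6% of all tested genes hold it. These 3 and the promoter of Rbpj are shown because they carry the letters beside a changed gene. A match describes the letters and is no evidence of binding. Capitals mark TGGGAA or its complement TTCCCA, with 1 more base where the longer form is present, and each sequence runs along its gene's strand and ends at the base before the start of the transcript that the RefSeq table uses, which for Rbpj, Sprr2a3 and Gldc is not the first base of the gene in GENCODE.
Rbpj (chr5:53590096-53590345, plus strand): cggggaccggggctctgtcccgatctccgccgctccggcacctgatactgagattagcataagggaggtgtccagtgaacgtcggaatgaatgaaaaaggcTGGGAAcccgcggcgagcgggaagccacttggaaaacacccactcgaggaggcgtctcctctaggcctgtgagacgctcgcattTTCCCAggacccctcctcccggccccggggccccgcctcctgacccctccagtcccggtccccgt
Sprr2a3 (chr3:92285054-92285303, plus strand): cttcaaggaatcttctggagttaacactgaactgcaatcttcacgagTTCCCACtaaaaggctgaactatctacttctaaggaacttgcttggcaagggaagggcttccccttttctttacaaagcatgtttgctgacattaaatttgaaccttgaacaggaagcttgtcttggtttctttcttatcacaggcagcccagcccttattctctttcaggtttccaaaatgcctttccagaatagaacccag
Gldc (chr19:30175442-30175691, minus strand): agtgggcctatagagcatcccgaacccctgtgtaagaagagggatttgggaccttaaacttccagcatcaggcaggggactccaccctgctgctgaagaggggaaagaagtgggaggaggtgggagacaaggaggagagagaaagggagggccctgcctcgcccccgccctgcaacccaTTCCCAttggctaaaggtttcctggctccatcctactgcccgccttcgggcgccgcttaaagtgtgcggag
Nkd2 (chr13:73847632-73847881, minus strand): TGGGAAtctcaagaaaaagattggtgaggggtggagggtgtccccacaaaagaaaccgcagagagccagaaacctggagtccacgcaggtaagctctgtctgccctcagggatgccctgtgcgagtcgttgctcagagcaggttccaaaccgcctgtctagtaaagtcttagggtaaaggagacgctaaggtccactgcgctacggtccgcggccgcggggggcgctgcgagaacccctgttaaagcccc

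Ranked by adjusted p instead of size, other genes came forward, chosen after their values were seen. Icam1, the adhesion molecule that binds leukocyte integrins, was at 57.2, 77.5, 57.1 and 61.9 CPM in KR against 29.5 and 28.4 CPM, and at 119, 121 and 128 CPM in LR against 42.3, 57.5 and 48.7 CPM. The groups did not overlap in either batch, the mutants within a group were alike, and the change was 1.23 ± 0.11 (SE, edgeR adjusted p = 6.88e-05). Vegfa, the main growth factor of blood vessels, rose by 1.56 ± 0.16 (SE, edgeR adjusted p = 0.000331), from 20.7 to 38.0 CPM to 67.3 to 114 CPM. Slc16a3, a lactate exporter, rose by 1.67, Ifitm3, a membrane protein that restricts viruses, by 1.29, Mill1, an MHC class I-like protein, by 1.28 and Wnt10a by 0.88. Of these, Icam1, Vegfa, Ifitm3 and Mill1 were called under all 24 alternatives, the replicate block included. Among the lower genes, Cab39l, a scaffold of the kinase Lkb1, fell by 0.88 ± 0.12 (SE, edgeR adjusted p = 0.00115), and Il22ra2, the soluble decoy that blocks interleukin 22, fell by 1.22 ± 0.18 (SE, edgeR adjusted p = 0.00252). Il22ra2 was at 7.66 to 18.4 CPM in the mutants and 26.3 to 39.0 CPM in the controls, and it was the one decrease called under all 24 alternatives.

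The gene lists used here and below were written with earlier results of these data known. Their shares beside those of all genes are therefore a description only. Genes of the Notch pathway itself went both ways. Of 28 receptors, ligands and processing genes tested, 2 rose (7.14%, near the 5.81% of all genes). Another 4 fell (14.3%, against 6.31%), the deleted gene Rbpj among them. Positive and negative changes numbered 14 each, and the median log2 fold change was -0.0044, beside 0.023 for all genes tested. Jag2, a ligand, rose by 0.53 ± 0.12 (SE, edgeR adjusted p = 0.0171), from 441 to 752 CPM in the controls to 701 to 1040 CPM in the mutants. Adam17, a protease of the Adam family, fell by 0.48 (edgeR adjusted p = 0.0137). Outside the rule for named genes, Notch2 fell by 0.55 (0.0233) and Notch4, a receptor best known from vessels, rose by 1.40 (0.0248). All 6 calls, Rbpj among them, were lost without the second-named controls and with the mitochondrial covariate. Leaving out LR 3 left 2 lower, and the 2 increases numbered 4 without LR control 2, 1 without KR control 4 and 0 without KR control 6. Of 17 target genes of the pathway, 2 rose (11.8%) and none fell, with a median of 0.28. Both that rose, Nfkb2 (0.90 ± 0.13, SE, edgeR adjusted p = 0.00162) and Bhlhe40 (0.84 ± 0.12, SE, edgeR adjusted p = 0.0022), are genes that other pathways also switch on. Hes5 had no count in 7 of the 12 libraries. Fewer cells of a type and less RNA per cell cannot be told apart in bulk RNA, here or below.

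Genes of stressed and wounded keratinocytes were the list with the highest median. Of 14 tested, 6 rose and none fell (42.9%, against 5.81% of all genes), and their median log2 fold change was 2.55, with 3.22 in KR and 1.80 in LR. The list has 31 genes, 24 of them in the data. A gene near 0 in the controls can pass the filter on low counts through the mutants alone, so the share and median depend on that filter. With no filter 6 of 24 rose, against 850 of 21007 genes in all. Beside Stfa3, Sprr2a3 and Krt16, Sprr2a1 rose by 3.06 ± 0.40 (SE, edgeR adjusted p = 0.00115), and Il1b, the inflammatory cytokine, by 1.46 ± 0.41 (SE, edgeR adjusted p = 0.0342). Sprr2h was called on 56 counts in KR and 23 in LR, against 2 and 3 in their controls. Among 6 gasdermins, which form pores in membranes, 4 rose (66.7%, against 5.81% of all genes), with a median of 1.26. With no filter 5 of 8 gasdermins rose. Gsdmc2 rose by 3.61 ± 0.63 (SE, edgeR adjusted p = 0.00723) and Gsdmd, which is cut by inflammatory caspases, by 1.32 ± 0.26 (SE, edgeR adjusted p = 0.0104). Gsdma3, a gene of the upper follicle and gland, rose by 1.21 ± 0.32 (SE, edgeR adjusted p = 0.033): it was at 62.5 to 93.3 CPM in LR against 17 to 20.4 CPM, whereas KR (15.9 to 22.5 CPM) overlapped its controls (11 and 21.7 CPM). In the stress list 3 genes rose when the second-named controls were left out, and also when KR control 4, KR control 6, LR control 5 or LR 3 alone was. Among the gasdermins 4 rose without the second-named controls. With the mitochondrial covariate 2 genes rose in each of these lists.

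Decreases outnumbered increases in the lists of desmosomes and upper layers. These lists overlap, with Dsg1a and Dsc1 in each, so their counts are not separate. Of 15 desmosome genes, whose proteins rivet keratinocytes together, 7 fell and none rose (46.7%, against 6.31% of all genes), with a median of -0.50. Dsg1a, a cadherin of the upper layers, was at 966, 582, 1060 and 463 CPM in KR against 1960 and 2080 CPM, and at 970, 1050 and 467 CPM in LR against 1340, 1570 and 2240 CPM. Every mutant lay below every control of its batch, KR 5 and LR 3 again lowest, and the change was -1.22 ± 0.24 (SE, edgeR adjusted p = 0.0119). Dsc1, its partner cadherin, fell by 1.07 ± 0.23 (SE, edgeR adjusted p = 0.0159), Dsc3 by 0.58 and Perp, a membrane protein of desmosomes, by 0.54. Of 39 genes of the suprabasal and cornified layers, 8 fell (20.5%) and 1 rose (2.56%), with a median of -0.47. Spink5, which restrains the proteases that shed the cornified layer, fell by 0.80 ± 0.18 (SE, edgeR adjusted p = 0.0161), and Cers3, which makes barrier ceramides, by 0.76 ± 0.18 (SE, edgeR adjusted p = 0.0181). Sprr1a, the one that rose (0.92, edgeR adjusted p = 0.0191, named outside the rule), is a cornified envelope gene also known from stress. Among 19 basal keratinocyte genes 3 rose (15.8%, against 5.81% of all genes) and 1 fell (5.26%, against 6.31%). Ifitm3, Krt14 and Krt5 (0.34) were higher and Cav1 (-0.42) lower. All 7 desmosome decreases and all 9 suprabasal calls were lost without the second-named controls (where 1 desmosome gene was called higher) and with the mitochondrial covariate, with medians of -0.37 and -0.51 in the first case. Leaving out KR control 4 left 4 calls in each of these lists, KR control 6 left 5 suprabasal genes lower, and leaving out LR 1 raised that count to 16.

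Chemokines and TNF family genes were called higher more often than lower. Of 17 chemokines 8 rose and none fell (47.1%, against 5.81% of all genes), with a median of 0.71. With no filter on low counts 8 of 21 rose. Ccl27a, the keratinocyte chemokine for skin-homing T cells, was at 312 to 431 CPM in KR against 177 and 187 CPM and at 282 to 336 CPM in LR against 186 to 236 CPM, a rise of 0.71 ± 0.12 (SE, edgeR adjusted p = 0.00478). Cxcl16, which is displayed on the cell surface, rose by 0.70 ± 0.12 (SE, edgeR adjusted p = 0.00611), and Ccl22, a product of dendritic cells, by 1.75 ± 0.32 (SE, edgeR adjusted p = 0.00735). Of 27 TNF ligands and receptors 7 rose (25.9%) and 1 fell (3.7%), with a median of 0.52. With no filter on low counts 6 of 35 rose. With a mean CPM of at least 1 as the filter, 6 of 23 rose, at a median of 0.24. Tnfrsf18 (GITR) went from 32.8 to 52.2 CPM in the controls to 61.4 to 81.7 CPM in the mutants, a rise of 0.83 ± 0.11 (SE, edgeR adjusted p = 0.00115), and Tnfrsf4 (OX40) rose by 0.87 ± 0.13 (SE, edgeR adjusted p = 0.00231). Tnf itself was low, at 0.553 to 1.72 CPM in the controls and 2.39 to 5.78 CPM in the mutants, and rose by 1.65 ± 0.31 (SE, edgeR adjusted p = 0.0083). Of 30 interferon-induced genes 1 rose (Cxcl10, 0.95) and 1 fell (Irgm2, -0.75), 3.33% each way, with a median of -0.015. Ifitm3, interferon-induced by its name, was counted in the basal keratinocyte list instead, and rose by 1.29. Cxcl10 missed under 12 of 24 alternative settings and Irgm2 under 19, and neither was called without the second-named controls. Without those controls 5 chemokines and 6 TNF family genes rose, with the mitochondrial covariate 4 of each did, and with no batch term 4 chemokines did. Leaving out LR control 3, KR control 4, LR control 5, KR 5 or LR 3 also left 5 chemokines.

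Of 16 genes of the epithelial interleukin 1, 7 and 17 families, 4 rose (25%, against 5.81% of all genes) and 2 fell (12.5%, against 6.31%), with a median of 0.22. Tslp and Il1b rose, whereas Il1rn, which blocks the interleukin 1 receptor, fell by 0.50 ± 0.13 (SE, edgeR adjusted p = 0.0273) and Il1f5, which blocks the interleukin 36 receptor, fell by 0.96 ± 0.25 (SE, edgeR adjusted p = 0.0297). Among 13 genes of EGF receptor ligands, which drive keratinocyte growth, receptors included, 1 was called each way (7.69%). That is near the shares of all genes (5.81% and 6.31%), so the count says nothing particular about them. Epgn rose by 1.32 ± 0.33 (SE, edgeR adjusted p = 0.0277) and Btc fell by 1.71 ± 0.43 (SE, edgeR adjusted p = 0.0292). Epgn in LR 3, at 18.1 CPM, lay inside the range of the LR controls (14.3 to 27.7 CPM), and so did Btc in LR 1 at 29.5 CPM (26.1 to 38.4 CPM). Of 28 serpins, stefins and other protease inhibitors 3 rose (10.7%) and 4 fell (14.3%), with Serpinb12 (-1.99 ± 0.37, SE, edgeR adjusted p = 0.00782) and Serpinb5 (-0.67 ± 0.14, SE, edgeR adjusted p = 0.0133) among the latter. Without the second-named controls 1 interleukin family gene rose and none fell, no EGF family gene was called, and 1 protease inhibitor rose and 1 fell. The protease inhibitors that rose numbered 1 without KR control 4 and 6 without LR control 2, and no EGF family gene was called without KR control 4 or KR control 6. Leaving out KR control 4, LR control 5, KR 3 or LR 1 left 1 interleukin family gene higher, and KR control 6, KR 5 or LR 3 left 2; the lower count was 0 without KR control 4 and 1 without KR control 6 or LR 3.

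Part of the genes of antigen presentation rose. All 9 MHC class II genes tested had positive changes and 4 rose (44.4%, against 5.81% of all genes), with a median of 0.59. H2-DMa, which loads peptides onto class II molecules, was at 59.3, 52.4, 49.4 and 64.8 CPM in KR against 33.4 and 16.3 CPM, and at 33.9, 30.0 and 36.3 CPM in LR against 20.3, 15.8 and 20.3 CPM. No mutant overlapped its controls, and the change was 0.99 ± 0.17 (SE, edgeR adjusted p = 0.00456). H2-Eb1 rose by 0.91 ± 0.18 and H2-DMb1 by 0.59 ± 0.12 (SE, edgeR adjusted p = 0.00984 for each), and H2-Ab1 by 0.83 ± 0.19 (SE, edgeR adjusted p = 0.0179). Langerhans cells are the antigen-presenting cells of the epidermis, and 4 of their 11 genes rose (36.4%), with a median of 0.63: Mfge8 (1.03), Epcam (0.38), Itgax (0.78) and Ltc4s (0.94). Their summed level was 1056 to 1158 CPM in KR against 579 and 812 CPM, and 632 to 986 CPM in LR against 464 to 718 CPM. The part of Langerhans cells in the class II values was not tested. Without the second-named controls 4 class II genes rose as well, without LR control 5 alone 7 did, and with the mitochondrial covariate none of them or of the Langerhans genes was called. The Langerhans count fell to 1 or 2 without any one of 8 mice (LR control 3, KR controls 4 and 6, KR 1, 3 and 5, and LR 1 and 3).

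Other immune cells gave weaker or mixed values. Of 26 epidermal T cell genes, Cd5 (0.99, edgeR adjusted p = 0.0261) and Il2rg (0.84, 0.0284) rose (7.69%, against 5.81% of all genes) and none fell, while the median was -0.23, with 0.26 in KR and -0.65 in LR. Their summed level was 263 to 405 CPM in KR against 163 and 264 CPM, and 142 to 229 CPM in LR against 226 to 370 CPM, so the 2 batches leaned in opposite directions. No T cell gene was called higher without the second-named controls, with the mitochondrial covariate or without KR control 4, and 1 was without LR control 5, KR control 6, KR 3 or LR 3. Cd3g, of the T cell receptor complex, had -0.58 (edgeR adjusted p = 0.0942). None of 10 genes of macrophages, neutrophils and mast cells was called, at a median of 0.57, and DESeq2 called 1 higher. C1qb, a defining macrophage gene, had no count in 10 of the 12 libraries, and the list's summed level was 42.9 to 47.2 CPM in KR against 19.3 and 33.1 CPM, and 25.0 to 40.1 CPM in LR against 22.1 to 32.5 CPM.

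**Figure D4:**
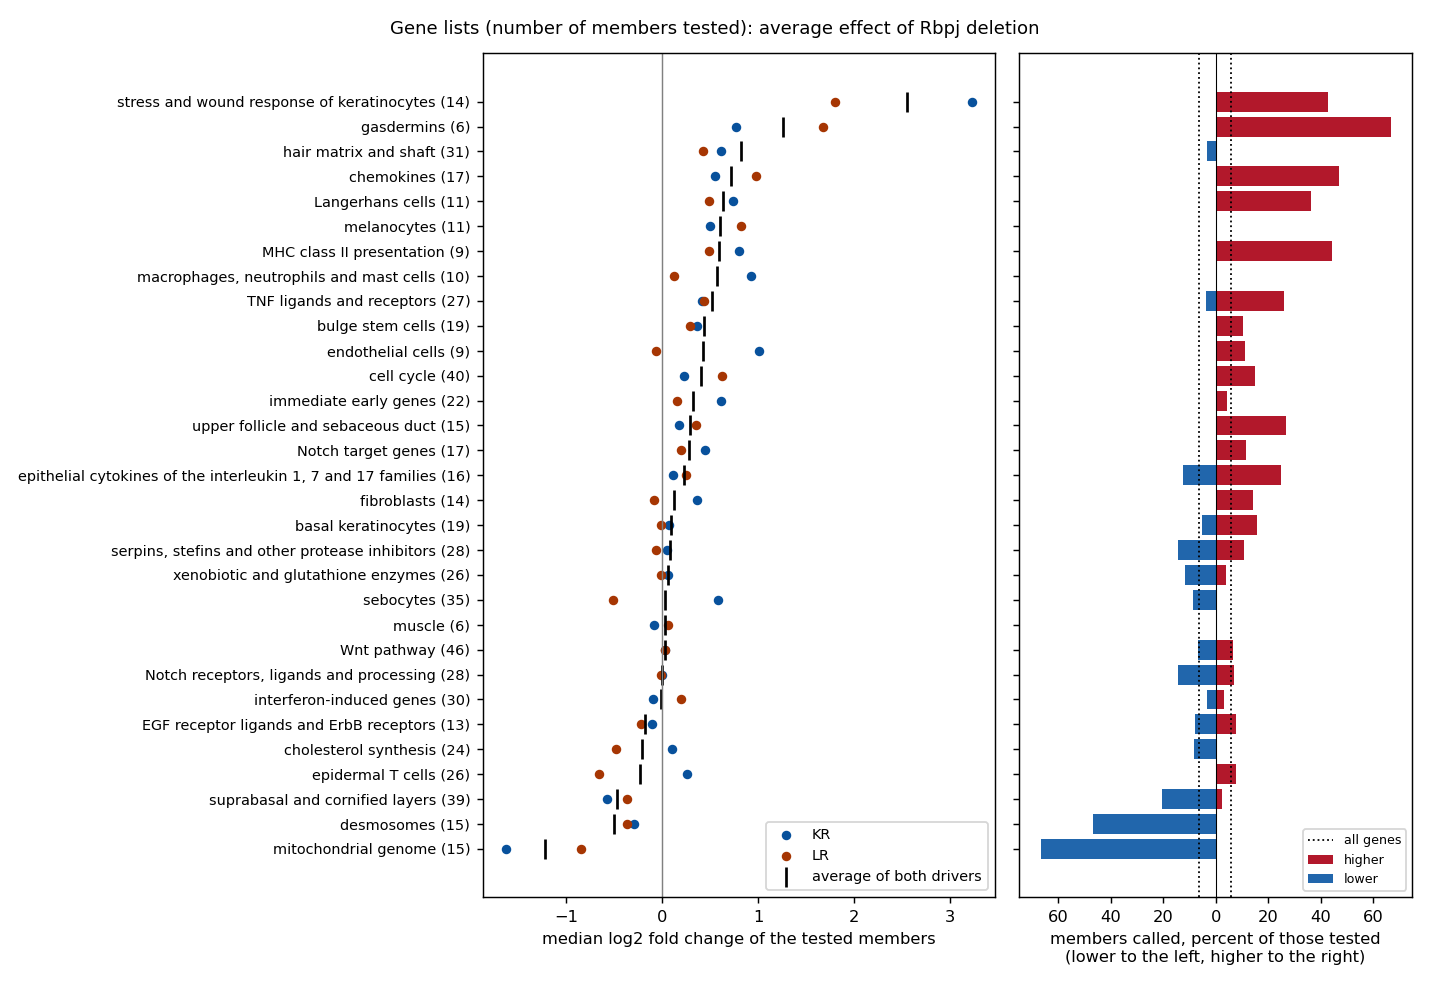
Left, the median log2 fold change of each gene list's tested members (their number in brackets) in KR, LR and on average. Lists were written with earlier results of these data known. Right, the percent of members called higher (to the right) and lower (to the left), with dotted lines at the shares of all genes tested, 5.81% and 6.31%. The stress list (2.55) and gasdermins (1.26) have the highest medians, and the mitochondrial list (-1.22), desmosomes (-0.50) and suprabasal genes (-0.47) the lowest.

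Genes of the cell cycle leaned upwards. Of 40 tested, 36 had positive changes and 6 rose (15%, against 5.81% of all genes), with a median of 0.41. Tk1, which makes thymidine nucleotides, was at 33.3 to 39.8 CPM in KR against 22.4 and 22.5 CPM, and at 31.1 to 43.4 CPM in LR against 19.9 to 28.9 CPM, a rise of 0.66 ± 0.12 (SE, edgeR adjusted p = 0.00661). Cenpa, of the centromere, rose by 1.05 ± 0.25 (SE, edgeR adjusted p = 0.0193), Ube2c by 1.14 ± 0.28 (SE, edgeR adjusted p = 0.023) and Cdk1, the kinase that starts mitosis, by 0.84 ± 0.20 (SE, edgeR adjusted p = 0.021). Mice rich in hair matrix RNA were not evenly spread. KR 1 had the lowest Cdk1 of the KR mice (12.7 CPM) and a low hair list. KR control 6 had the higher Cdk1 of its group (13.8 against 9.43 CPM) and a high hair list. The LR mice ran the other way by mean log2 CPM of the cell cycle list. LR 3, with a low hair list, was highest (5.08), and LR 2, with a high one, lowest (4.61). A link between the lists was not tested. With the hair list as a covariate, added after seeing the data, 6 cell cycle genes rose at a median of 0.35, and over all genes 836 rose and 768 fell. Without KR control 4 only 1 of the 40 rose, without LR control 5 or LR 3 only 2, and without KR control 6 there were 11.

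Lists of the follicle and its glands differed in their share of calls. Of 15 genes of the upper follicle and sebaceous duct 4 rose (26.7%, against 5.81% of all genes), among them Gata6 (1.01 ± 0.19, SE, edgeR adjusted p = 0.00845), the transcription factor of the duct, Aqp3 (0.64 ± 0.13, SE, edgeR adjusted p = 0.0102), a glycerol channel, and Fst (0.35), and 2 rose without the second-named controls. Gata6 was at 55.2 to 63.0 CPM in KR against 39.3 and 39.7 CPM, and at 114, 69.7 and 142 CPM in LR against 31.9 to 46.0 CPM. Of 19 bulge stem cell genes Foxc1 (0.79 ± 0.19, SE, edgeR adjusted p = 0.0226) and Fst rose (10.5%), but Fst missed the threshold under 19 of 24 alternative settings and Foxc1 under 6, with none of the list higher without KR control 4 or LR control 5. Of 46 Wnt pathway genes 3 rose and 3 fell, 6.52% each way and near the shares of all genes, so the count says nothing particular about them, with Wnt10a, a ligand, higher and Nkd2, Rspo3 and Znrf3 (-0.57 ± 0.14, SE, edgeR adjusted p = 0.02), which removes Wnt receptors, lower. Without the second-named controls 1 Wnt gene rose and 1 fell, 1 rose without LR control 5, KR control 6, KR 3 or LR 3, and the number that fell was 1 without KR control 4 and 5 without KR 1. Of 31 hair matrix and shaft genes only Foxn1, a regulator of the hair shaft, was called (3.23%), at -0.72 ± 0.16 (SE, edgeR adjusted p = 0.0166). The list's median of 0.82 went to -0.33 without LR 2 and to 1.76 without LR control 2. Of 35 sebocyte genes 3 fell (8.57%, against 6.31% of all genes): Acsl1 (-0.77), Dgat2 (-0.65) and Prdm1 (-0.59). The list's medians were 0.58 in KR and -0.51 in LR. Of 24 cholesterol synthesis genes Stard4 (-0.70) and Hmgcs1 (-0.45) fell (8.33%), with medians of 0.11 in KR and -0.48 in LR. The sebocyte and cholesterol shares are near that of all genes, so these counts say nothing particular about the lists. None of the sebocyte or cholesterol genes was called without the second-named controls, and leaving out any one of 8 mice (LR control 3, KR controls 4 and 6, KR 1, 3 and 5, and LR 2 and 3) left 1 sebocyte gene.

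Markers of cells beyond the epidermis are given for completeness. None of 11 melanocyte genes and none of 6 muscle genes was called (medians 0.60 and 0.03). DESeq2 also called none of either. The fibroblast list had 2 of 14 genes that rose (14.3%, against 5.81% of all genes), Vim (0.55) and Fn1 (1.61), both also made by other cells. Its summed level was 515 to 824 CPM in KR against 318 and 339 CPM, and 328 to 425 CPM in LR against 300 to 386 CPM. Of 9 endothelial genes 1 rose (11.1%): Flt1, a receptor for Vegfa, changed by 1.62 ± 0.44 (SE, edgeR adjusted p = 0.0345). It was at 3.07 to 15.4 CPM in the mutants and 1.35 to 4.61 CPM in the controls, with LR 2 (3.57 CPM) inside the range of the LR controls. Of 26 xenobiotic and glutathione enzymes Fmo2, Fmo5 (-0.53) and Gsta2 (-0.94) fell (11.5%) and Gstp1 (0.47) rose (3.85%). None of the 26 was called without the second-named controls or with the mitochondrial covariate, Gstp1 missed under 12 of 24 alternative settings, and 1 fell without KR control 4. Of 22 immediate early genes, which dissociation can switch on, Ier3 alone was called (4.55%), with a rise of 1.01 ± 0.25 (SE, edgeR adjusted p = 0.023).

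The mitochondrial list had the lowest median, -1.22, and 10 of its 15 genes fell (66.7%, against 6.31% of all genes). mt-Co2 was at 8.48, 6.81, 8.96 and 12.1 CPM in KR against 73.3 and 186 CPM, and at 6.88, 6.69 and 9.38 CPM in LR against 7.88, 6.61 and 98.2 CPM. In LR the difference therefore came from LR control 5 alone, and LR controls 2 and 3 were level with the mutants. With the second-named controls left out none of the 15 was called, at a median of -0.47, and with KR control 6 alone left out none was called either. The counts were 1 without LR control 5, 3 without KR control 4, 5 without LR 3 and 6 without KR 3.

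**Figure D5:**
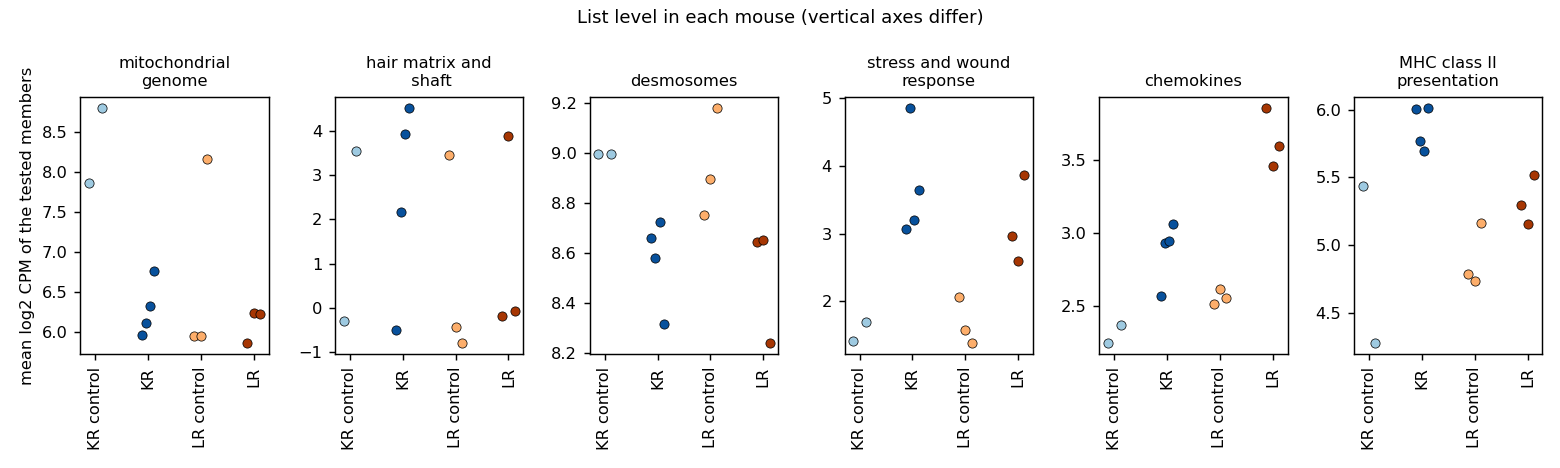
Mean log2 CPM (vertical axes, which differ in range) of the tested genes of 6 lists in each of the 12 mice, by group. The mitochondrial list is high in both KR controls and LR control 5, the hair list splits mice within every group, and the stress and chemokine lists lie above the controls of the same batch in all 7 mutants.

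Whether the drivers differ was tested as KR effect minus LR effect. A single gene passed, Gypc (0.00616% of those tested), which codes for glycophorin C of the cell membrane, and 686 genes (4.22%) had an unadjusted p under 0.05. It was at 15.6, 15.3, 23.1 and 21.2 CPM in the KR mice against 0.101 and 0.557 CPM in their controls, and at 0.0997, 0.0892 and 0 CPM in the LR mice against 0.615, 0.354 and 0.921 CPM. All KR mice were high and all LR mice were at or near 0. The difference was 9.10 ± 0.92 on the log2 scale (SE, edgeR adjusted p = 0.00233), a size that rests on 2 counts over the 3 LR mice, and the average effect on Gypc did not pass (edgeR adjusted p = 0.18). In the KN1 mice, which carry the K14 driver with the other deletion, it also rose, by 4.95 ± 0.48 (SE, edgeR adjusted p = 0.000104). Of the 24 genes with the largest average changes, 4 had an unadjusted p under 0.05 for the difference, among them Tslp, Pyy and Ccl2. Driver and batch cannot be told apart here. DESeq2 called 7 genes for this difference.

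The average effect of Rbpj loss, here the equal mean of the KR and LR effects, was last set against that of Notch1 loss, in a fit of all 18 mice. No gene passed (0% of 16517; smallest adjusted p 0.0553 in edgeR), while 1376 genes (8.33%) had an unadjusted p under 0.05 and DESeq2 called 81. Loss of Notch1 alone called 142 genes higher and 183 lower (0.86% and 1.11%). Of the genes that rose on average after Rbpj loss, 810 of 941 (86.1%) had a positive Notch1 effect, with a median of 0.41, and 40 were also called there. Of those that fell, 935 of 1024 (91.3%) had a negative Notch1 effect, with a median of -0.40, and 95 were called. Over all genes the corresponding shares were 51.6% and 48.4%. The sides share no mouse. The mitochondrial list was lower in KN1 too, at a median of -1.08 with 3 genes called lower. mt-Co2 was at 7.01 to 9.84 CPM in the KN1 mice, against 102 and 94.4 CPM in their controls. How far this difference bears on the shared signs was not tested. Among the 12 genes with the largest increases, 10 had the sign of their change in KN1 and 2 were called there, with 10 at an unadjusted p under 0.05 for the difference and a smallest adjusted p of 0.0722 (Gsdmc). Among the 12 largest decreases 11 had the same sign in KN1, 1 was called there, and 5 had an unadjusted p under 0.05 for the difference, with a smallest adjusted p of 0.0916 in edgeR. Tslp, for example, was at 2.23 to 3.18 CPM in the KN1 mice against 0.408 and 0.760 CPM in their controls, an effect 1.89 ± 0.65 (SE) smaller on the log2 scale than after Rbpj loss, a difference that did not pass (edgeR adjusted p = 0.434). For Ceacam12 the difference was 0.39 ± 0.40 (SE). The MHC class II list had a median of -0.56 in KN1 and 0.59 after Rbpj loss, and H2-DMa differed by 1.55 ± 0.29 (SE, edgeR adjusted p = 0.0655). The hair matrix list had a median of 4.83 in KN1, and how hair growth in those mice bears on other differences was not tested.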

How the data were processed

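RNA of 18 mouse skin epidermis samples was sequenced, and the deposited values are whole-number read counts per gene in 1 table of 21011 genes. The authors used STAR, HTSeq and DESeq2 with the mm10 build, per the submitters' processing notes. Versions, strand setting and the handling of reads with several positions are not given in the sources used here. The lowest row total was 18, so genes with fewer counts are not in the table.

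Counts were scaled by TMM and tested with edgeR 4.0.16 (quasi-likelihood F-test, two-sided, R 4.3.3) on genes passing its expression filter, with batch and deletion as terms for 12 libraries. Adjusted p-values are Benjamini-Hochberg over all genes tested, called under 0.05, and a standard error is the log2 fold change over the root of F. By the numbers of mice alone, the average weighted KR by 47.1% and LR by 52.9%, and in the fit the weights vary by gene. The KR and LR effects came from 4 group means. The Notch1 comparison came from 6 groups over 18 libraries, with the average there taken as the equal mean of the KR and LR effects. Log2 CPM used a prior count of 2. Depth was 8076316 to 20260259 counts per library over the 12 mice. On simulated counts with known changes for the average effect (16241 genes), 67% of 100 genes changed 2-fold and 97% of 100 changed 4-fold were recovered. There each gene was drawn independently and no other gene was changed, so levels shared by many genes of a library were absent. These rates therefore do not give the recovery in the real libraries.

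The members and the 31 gene lists were chosen with earlier results of these data known. Genes named are the 12 largest called changes per direction at 5 CPM or more on the higher side of both batches with no overlap in both batches, up to 4 called genes per list and 5 per direction of each difference by adjusted p, and a fixed set (Rbpj, Notch1, Krt14, Lrig1), besides those said to be chosen after their values were seen. A few genes that the rule names are not reported here, though counts and medians include them. Alternatives were DESeq2 1.42.0, other scaling and filters, the second-named controls left out, sex, a replicate block, no batch term, other means of both effects and each mouse left out, with covariates for the mitochondrial and hair lists added after seeing the data. Gene coordinates are from GENCODE M21 (GRCm38), which matched 15418 of the 21011 symbols.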

Additional observations from a re-analysis of the deposited data

Results flagged for a closer look

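Gypc stood out because its effect differed between the drivers: KR minus LR was 9.10 on the log2 scale (edgeR adjusted p = 0.00233), with all 4 KR mice above and all 3 LR mice below the controls of their batch. Among 152 values tested over the 4 KR mice, 8 had 1 mouse far from the other 3, and chance gives about 1 in 20. KR 4 was far from the rest for Cab39l (53.4 CPM), Btc (17 CPM), Cd5 (1.81 CPM) and Tcrg-C1 (5.22 CPM), KR 3 for Sprr2h (3.92 CPM) and Gsdmd (4.13 CPM), and KR 1 for Ccl27a (431 CPM) and Ltc4s (17.1 CPM). For Cab39l and Btc, KR 4 was the KR mouse nearest to the controls.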

How the results depend on the processing

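The average effect called 943 genes higher and 1024 lower, and these counts moved to 359 and 142 without the second-named controls, 462 and 538 with no batch term, and 297 and 140 with the mitochondrial covariate. Leaving out 1 mouse gave 308 to 1318 higher and 354 to 1489 lower. DESeq2 called 1411 and 1506. All 1967 calls kept their sign in each alternative where tested, except for 1961 with the mitochondrial covariate. KR calls were 997 with DESeq2, 672 with the batch fitted alone and 10 to 1624 without 1 mouse, and LR calls were 592, 66 and 51 to 177. The KR minus LR difference called 7 genes with DESeq2, 8 without the second-named controls, 2 with sex as a covariate and 1 to 4 without 1 mouse. Average minus Notch1 effect called 81, 20 and 1 in the same settings, 8 with no filter and 0 to 9 without 1 mouse. In the Notch1 comparison, leaving out the second-named controls also removed KN1 control 7, so only KN1 control 1 was left in its group. The replicate block, which pairs mice by number, left 64 genes higher and 12 lower. Numbers 2, 3 and 4 occur in a mutant and a control of the same batch, and only those pairs inform the deletion effect in that fit. Same-numbered pairs had correlations of 0.0693, -0.0886 and -0.281, and 1 of 3 mutants correlated best with its own number. With so few mice per group, these values cannot decide whether the numbers pair the mice. The main fit, batch plus deletion, does not use the numbers. With the block Rbpj had -0.33 (edgeR adjusted p = 0.28) and Krt14 0.47 (0.187). Krt14 also missed with the mitochondrial covariate (0.51, edgeR adjusted p = 0.0662). Notch1 turned to -0.012 with a CPM minimum of 1, -0.0136 with no batch term and ranged from -0.0477 to 0.0251 without 1 mouse, negative for 5 of the 12. mt-Nd3 turned to 0.0124 with the mitochondrial covariate and Gypc to -0.33 with DESeq2. Causes were not tested. Genes of a few counts per library, such as Sprr2h, are limited by depth.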
